A study of Mus musculus with 2 samples.

Results

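The BCL2 family decides whether a cell's mitochondria release the factors that start apoptosis, and it was followed here through 10 member genes in a mouse model of B-ALL, an acute leukaemia of immature B cells. The members were all probes whose RefSeq accession belongs to one of the 10 genes, which gave 13 of 39085 non-control probes and 10 of 20618 named genes. The list was set by gene name, with no threshold on measured values. Leukaemic cells with a high and with a low SoNar ratio (SoNar-high and SoNar-low) came from bone marrow of C57BL mice of 8 weeks. SoNar is a genetically encoded fluorescent sensor of the cytosolic NADH to NAD+ ratio, and the cells were sorted by the ratio of its fluorescence at both excitation wavelengths. Each group had 1 array, hybridised with Cy3-labelled cRNA prepared from total RNA. In their titles the samples are called N-myc-high (SoNar-high) and N-myc-low (SoNar-low), which the labels do not explain. How the leukaemia was started, and how many animals gave cells, is not given in the sources used here. The comparison asks how leukaemic cells of different metabolic state differ in expression.

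Proteins of the family fall into 3 roles. Survival proteins (BCL2, BCL-XL from the gene Bcl2l1, and MCL1) hold the death-promoting ones in check. The effectors BAX and BAK1 open the outer mitochondrial membrane once they are freed or activated. BH3-only proteins carry a single short BH3 helix and tip the balance: BIM (gene Bcl2l11), PUMA (Bbc3) and BID can engage effectors as well as survival proteins, NOXA (Pmaip1) binds chiefly MCL1, and BAD binds BCL2 and BCL-XL. In developing B cells BIM limits survival, and BCL2, BCL-XL and MCL1 each support lymphoid cells at some stage.

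The share of the 43020 non-control spots that stood well above background was 72.9% for SoNar-high, against 44.8% for SoNar-low, and 0 were saturated. The arrays were scanned in different sessions, so scan session and group cannot be told apart. With 1 array per group no test was possible and no difference below has a replicate check. Of 18 B-lineage markers 13 were measured on both arrays, among them Cd79b, a chain of the B cell receptor, with a signal of 14377 in SoNar-high cells, against 12625 in SoNar-low cells. Of the progenitor-stage genes, Rag1, Rag2, Il7r and Igll1 were well above background on neither array and Vpreb2 on the SoNar-high array alone. Vpreb3 had a signal of 9345 in SoNar-high cells, against 12061 in SoNar-low cells, and the dimmer Dntt and Vpreb1 were measured on both arrays as well. The median log2 difference (SoNar-high minus SoNar-low) was -0.17 among the 10517 genes that both arrays measured. Each member is therefore given also relative to that median, a value that a shift of a whole array cannot move. Centring the arrays on their medians instead lowers every log2 difference by 0.61. The 13 measured B-lineage markers had a median log2 difference of -0.26, with 7 below the median of all genes and 6 above. They ran from -0.92 for Ebf1 to 1.16 for Cd22, the 1 marker of this list past 2-fold. The summed signal of all 18 was 61905 in SoNar-high cells, against 67206 in SoNar-low cells.

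No member differed 2-fold in its mean over the probes measured on both arrays. All 10 members were so measured, through 11 of their 13 probes, and 0 were at least 2-fold higher on the SoNar-high array and 0 at least 2-fold lower. Among all measured genes 4.87% were at least 2-fold higher (512 genes) and 1.68% at least 2-fold lower (177 genes). With the arrays centred on their medians these counts were 139 and 3306, and 5 members (Bcl2, Bcl2l1, Mcl1, Bak1 and Pmaip1) were then at least 2-fold lower. By the probes measured on both arrays, the 3 survival members lay close together below the median of all genes, although a second Bcl2l1 probe went the other way, while the 7 death-promoting members were spread on both sides of it. In bulk RNA of a sorted population, fewer cells of a type and less RNA per cell cannot be told apart.

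**Figure D1:**
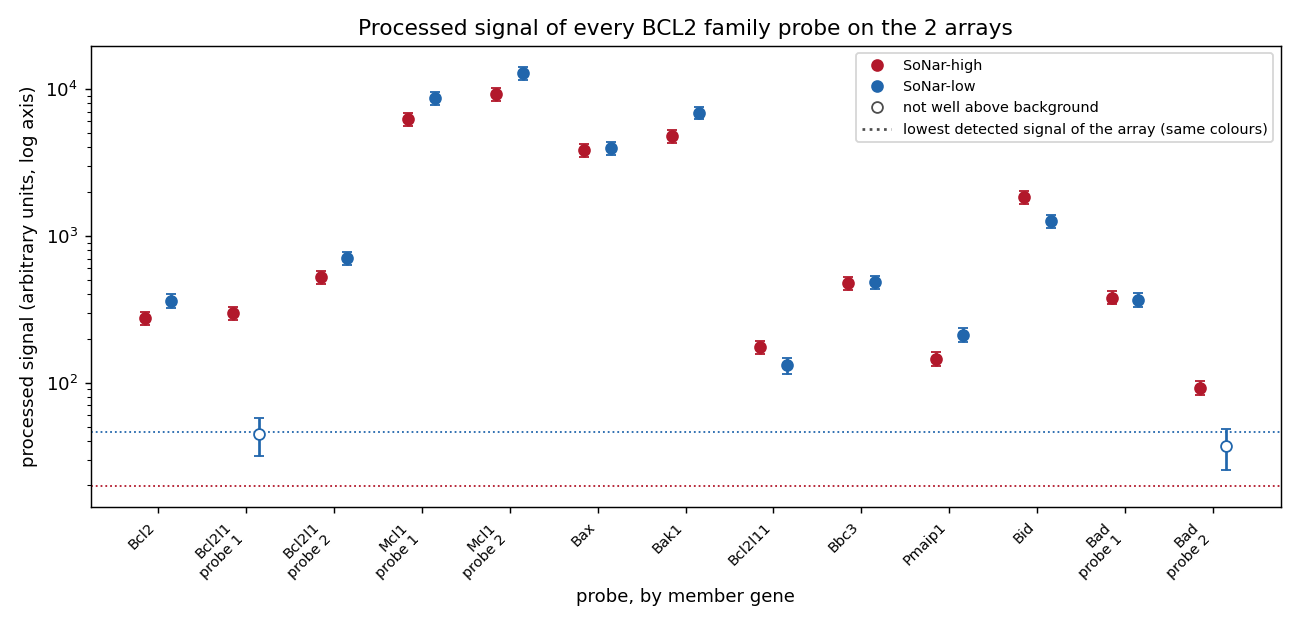
Processed signal (arbitrary units, log axis) of the 13 probes of the 10 member genes, SoNar-high left of SoNar-low for each probe. Bars are the scanner software's own error, dotted lines the lowest detected signal of each array (19.7 for SoNar-high and 46.4 for SoNar-low), and open circles spots not well above background. Probe 1 of Bcl2l1 and probe 2 of Bad were not well above background on the SoNar-low array.

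In the values below, ± is the scanner software's error of the spot, which holds no biological spread. Among the survival members, Bcl2, the founding member and the target of the drug venetoclax, had a processed signal of 275 ± 27.8 in SoNar-high cells, against 362 ± 37.5 in SoNar-low cells (probe A_51_P380013). Mcl1, a short-lived survival protein that many haematopoietic cells need, was read by a pair of probes. The first had a signal of 6214 ± 621 in SoNar-high cells, against 8682 ± 868 in SoNar-low cells. The second gave 9201 ± 920 in SoNar-high cells, against 12828 ± 1283 in SoNar-low cells. Both Mcl1 probes and the Bcl2 probe were thus dimmer on the SoNar-high array. The log2 differences were -0.54 for Bcl2 and -0.63 for Mcl1, whose probes gave -0.63 and -0.62. Relative to the median of all measured genes these were -0.37 and -0.46.

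Bcl2l1 was read by a pair of probes that disagreed. The probe used in the comparison, A_55_P1974877, had a signal of 526 ± 52.7 in SoNar-high cells, against 706 ± 71.3 in SoNar-low cells, a log2 difference of -0.57. The other probe, A_52_P510877, had a signal of 299 ± 30.3 in SoNar-high cells, against 44.6 ± 12.8 in SoNar-low cells, where it was not well above background. The first probe was dimmer on the SoNar-high array and the second brighter. Set against the lowest detected level of the SoNar-low array, the second probe was 5.84-fold higher on the SoNar-high array (2.55 on the log2 scale). This bound leaves out the software's error, so it is not a strict limit, and centring the arrays on their medians lowers it. Both probes are annotated to the same RefSeq transcript, and their sequences were not analysed here. Averaging both probes turned the log2 difference of Bcl2l1 to 1.02, which made it the member furthest above 0. The direction of Bcl2l1 is therefore not settled by these arrays. Of 968 genes that were measured on both arrays and had a further probe detected on the SoNar-high array alone, 69 had a bound of at least 2-fold on that probe and 37 of these had measured probes with a mean below 0. Bcl2l1 had the largest bound of the 37.

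The sequence before the transcription start is shown for the survival genes, which lay close together by their used probes, and for Bcl2l11 and Bid, the members furthest above the median. RefSeq promoters of GRCm38.p6 matched 9 of the 10 members (not Pmaip1). Each run holds the 250 bases before the outermost listed start, 5′ to 3′ on the gene's strand. Capitals mark matches, on either strand, to 5 motifs: the FOXO core TGTTTAC, the cAMP-responsive core TGACGT, the E-box CACGTG, the GC box GGGCGG and the CCAAT box CCAAT.
Bcl2 (chr1:106714291-106714540, minus strand): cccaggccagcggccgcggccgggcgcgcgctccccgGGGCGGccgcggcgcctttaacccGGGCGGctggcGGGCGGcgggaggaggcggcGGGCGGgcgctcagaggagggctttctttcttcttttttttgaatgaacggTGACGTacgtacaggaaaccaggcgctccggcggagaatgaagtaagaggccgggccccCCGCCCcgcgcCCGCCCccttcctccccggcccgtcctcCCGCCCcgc
Bcl2l1 (chr2:152831729-152831978, minus strand): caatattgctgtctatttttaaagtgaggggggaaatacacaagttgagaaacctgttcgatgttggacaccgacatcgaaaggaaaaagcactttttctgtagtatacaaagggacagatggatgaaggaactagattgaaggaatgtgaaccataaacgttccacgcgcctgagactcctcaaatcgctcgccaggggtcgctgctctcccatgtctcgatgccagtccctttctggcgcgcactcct
Mcl1 (chr3:95658471-95658720, plus strand): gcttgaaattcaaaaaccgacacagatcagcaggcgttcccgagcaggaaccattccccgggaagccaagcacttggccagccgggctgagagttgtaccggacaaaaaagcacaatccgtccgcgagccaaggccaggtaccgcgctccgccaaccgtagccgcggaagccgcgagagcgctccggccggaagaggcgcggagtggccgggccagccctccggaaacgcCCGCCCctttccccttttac
Bcl2l11 (chr2:128125788-128126037, plus strand): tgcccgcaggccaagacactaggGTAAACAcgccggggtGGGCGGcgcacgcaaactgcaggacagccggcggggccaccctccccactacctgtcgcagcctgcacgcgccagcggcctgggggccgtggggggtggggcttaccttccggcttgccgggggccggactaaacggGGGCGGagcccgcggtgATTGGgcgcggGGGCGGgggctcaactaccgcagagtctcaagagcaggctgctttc
Bid (chr6:120916825-120917074, minus strand): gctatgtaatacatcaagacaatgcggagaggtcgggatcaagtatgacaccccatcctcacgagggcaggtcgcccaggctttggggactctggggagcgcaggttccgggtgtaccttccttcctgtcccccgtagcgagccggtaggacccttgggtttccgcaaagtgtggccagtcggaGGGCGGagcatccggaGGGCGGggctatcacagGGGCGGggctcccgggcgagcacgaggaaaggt

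The survival genes shared few of these letters. The Bcl2 window held 7 GC boxes and 1 cAMP-responsive core, the Mcl1 window 1 GC box, and the Bcl2l1 window 0 matches to any of the 5 motifs. The Bcl2l11 window held 1 FOXO core, 3 GC boxes and 1 CCAAT box, and the Bid window 3 GC boxes. Counting all 15 windows of the 9 members, the FOXO core stood in 2 (of Bcl2l11 and Bbc3), the cAMP-responsive core in 1 (of Bcl2) and the E-box in 2 (of Bbc3 and Bax). GC boxes stood in 10 windows of 7 members and CCAAT boxes in 4 windows of 3 members. Of all 32851 windows of this length, 3.17% held the FOXO core, 6.47% the cAMP-responsive core, 6.02% the E-box, 32.7% the GC box and 33.8% the CCAAT box. The G and C content was 74.8% before Bcl2, 64.4% before Mcl1 and 47.6% before Bcl2l1, against a median of 52.4% over all windows. These matches describe the letters and no binding was measured.

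The 2 effectors differed from each other. Bak1, which resides on the mitochondrial outer membrane, had a signal of 4793 ± 479 in SoNar-high cells, against 6884 ± 688 in SoNar-low cells. Bax, which shuttles between cytosol and mitochondria, had 3834 ± 383 in SoNar-high cells, against 3960 ± 396 in SoNar-low cells. Bak1 was dimmer on the SoNar-high array, while the Bax signals lay within the scanner software's error of each other. The log2 difference was -0.67 for Bak1 and -0.19 for Bax, or -0.50 and -0.02 relative to the median of all genes. Bax and Bak1 thus stood 0.48 apart on the log2 scale.

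The 5 BH3-only genes spanned the whole range of the family. Bid, whose protein links death receptors to mitochondria after cleavage by caspase-8, had a signal of 1842 ± 184 in SoNar-high cells, against 1266 ± 127 in SoNar-low cells. Bcl2l11, the gene of BIM, had 175 ± 17.9 in SoNar-high cells, against 132 ± 16.2 in SoNar-low cells. Both were brighter on the SoNar-high array, with log2 differences of 0.40 for Bid and 0.26 for Bcl2l11, or 0.56 and 0.43 above the median of all genes. With the arrays centred on their medians both turned negative, Bid to -0.22 and Bcl2l11 to -0.35, since all genes shift together. Bcl2l11 was also at -0.07 under quantile normalization and at -0.09 in the authors' deposited table. It was at 0.04 under cyclic loess and 0.05 under normexp, so its sign was not settled. Under these settings Bid stayed above 0, from 0.36 to 0.61. The Bcl2l11 signal was only 2.84 times the lowest detected signal of the SoNar-low array.

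Pmaip1, the gene of NOXA and a target of p53, lay at the other end. Its signal was 146 ± 15.2 in SoNar-high cells, against 212 ± 23.1 in SoNar-low cells, a log2 difference of -0.68 and the lowest of the 10 members. It was -0.51 relative to the median of all genes. In the authors' deposited table its log2 difference was -1.01, past 2-fold.

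Bbc3, the gene of PUMA and likewise a p53 target, stood at the median of all genes. Its signal was 475 ± 47.6 in SoNar-high cells, against 482 ± 49.2 in SoNar-low cells, a log2 difference of -0.17. Bad, which is held inactive by phosphorylation and 14-3-3 proteins, had 380 ± 38.2 in SoNar-high cells, against 367 ± 38.3 in SoNar-low cells with its used probe, a log2 difference of -0.10. Neither gene's signals differed by more than the software's error. The second Bad probe had a signal of 92.5 ± 10.2 in SoNar-high cells, against 36.9 ± 11.3 in SoNar-low cells, where it was not well above background. Set against the lowest detected level of the SoNar-low array, that probe was 1.81-fold higher on the SoNar-high array. This bound is short of 2-fold and leaves out the software's error. Centring the arrays on their medians lowers this bound as well.

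**Figure D2:**
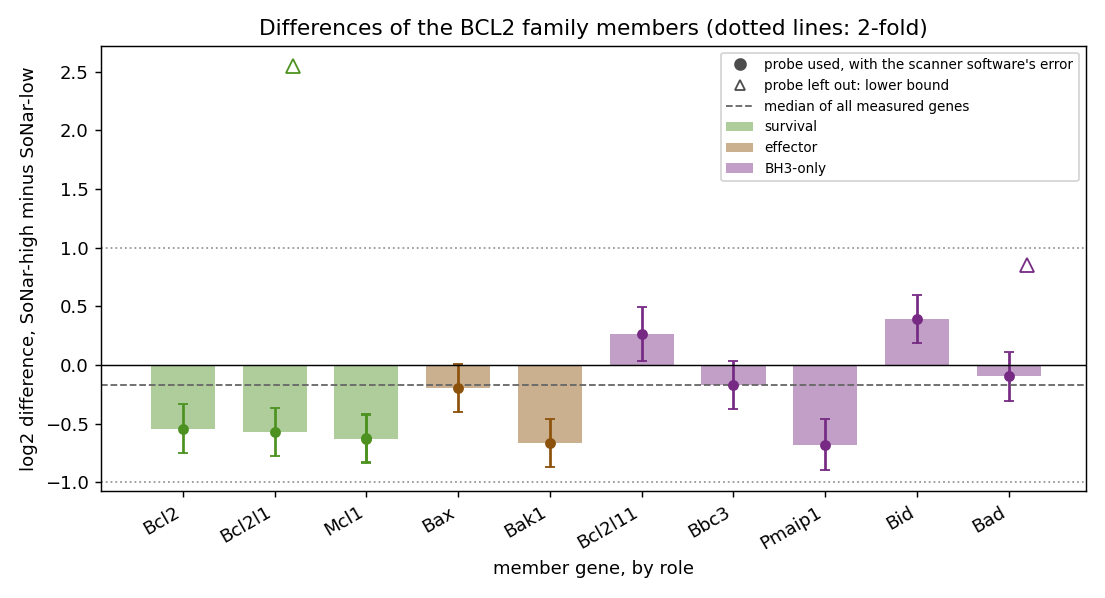
Log2 difference (SoNar-high over SoNar-low) for each member gene, with bars for the gene, circles for its used probes (error bars from the scanner software) and open triangles for the bounds of the 2 probes left out. The survival members lie between -0.63 and -0.54, the BH3-only members between -0.68 and 0.40, and the bound of the left-out Bcl2l1 probe at 2.55.

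Set side by side, the survival members had a median log2 difference of -0.57 (from -0.63 to -0.54) and the death-promoting members one of -0.17 (from -0.68 to 0.40), against -0.17 for all measured genes. By these probes all 3 survival members lay below the median of all genes, where 50% of genes lie by construction, as did 4 of the 7 death-promoting members (Bax, Bak1, Bbc3 and Pmaip1). Bbc3 at -0.0012 and Bax at -0.025 were next to it. Under 7 of the 13 alternatives 4 of 7 death-promoting members lay below it, and under the other 6, 2 of 7. The gap between the medians was -0.40, survival minus death-promoting. The groups overlapped, since Bak1 and Pmaip1 lay below every survival member. Of the 21 pairs of a survival and a death-promoting member, the survival member had the lower difference in 15 and the higher in 6. With both Bcl2l1 probes averaged, only Bcl2 and Mcl1 lay below the median of all genes. Without Bcl2l1, whose direction is not settled, the survival median was -0.58 and the survival member had the lower difference in 10 of 14 pairs. The pairs are not separate comparisons, since the survival members lay close together by their used probes. By those probes the survival members lay at or below the 19.6th percentile of all measured genes, so most genes lay above them. The pair counts therefore do not set the death-promoting members apart from other genes.

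Among proteins that bind each other, Mcl1 and its partner Pmaip1 differed by 0.05 on the log2 scale and Mcl1 and Bak1 by 0.04, so these ratios were nearly equal on both arrays. For Mcl1 and Pmaip1 this did not hold under quantile normalization, cyclic loess or in the authors' deposited table, where the ratio of Mcl1 to Pmaip1 was 1.40-fold, 1.38-fold and 1.45-fold higher in SoNar-high cells. The ratio of Bcl2l11 to Mcl1 was 1.85-fold higher on the SoNar-high array, and 1.34-fold, 1.34-fold and 1.31-fold higher under those settings. The ratio of Bid to Mcl1 was 2.03-fold higher there, the largest shift of the 21 pairs. For Bcl2 and Bax the log2 difference of Bcl2 was lower by 0.35, and for Bcl2l1 and Bad that of Bcl2l1 was lower by 0.48. The last of these, like every ratio with Bcl2l1, rests on the used probe.

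Technical spread sets the scale of these values, since no biological spread was measured. The scanner software's errors of both arrays combined gave a log2 error of 0.20 to 0.23 for the 11 used probes. Repeat spots of 1 probe detected on both arrays differed by a median SD of 0.15 in their log2 differences (201 probes). Different probes of 1 gene had a median SD of 0.32 (2394 genes), with a 90th percentile of 0.82. Relative to the median of all genes, 7 of 10 members (Bcl2, Bcl2l1, Mcl1, Bak1, Pmaip1, Bid and Bcl2l11) lay further out than the median SD between probes. Of all measured genes 51.4% did. Against the same SD, 3 members (Bcl2, Pmaip1 and Bid) lay further out under cyclic loess and in the authors' deposited table, 4 under quantile normalization and 5 under normexp. The SD was not recomputed for these settings, and the share of all genes beyond it under them is not given here. Whether the smaller counts are particular to the members can therefore not be read from them. Beyond the 90th percentile lay 0 members and 11.9% of all genes. The members as a set did not stand out in size.

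The differences also followed brightness over the whole array. Genes with a mean level above the arrays' 75th percentile had a median log2 difference of -0.29 (5771 genes), and dimmer genes one of 0.016 (4746 genes). Mcl1, Bak1, Bax, Bid and Bcl2l1 belong to the brighter genes and the other 5 members to the dimmer ones. Cyclic loess, which removes such a trend, left Bcl2, Bcl2l1, Mcl1, Bak1 and Pmaip1 below the median of all genes. Bid, Bax, Bcl2l11, Bad and Bbc3 lay above it. The values relative to that median were then -0.41 for Bcl2, -0.26 for Mcl1, 0.16 for Bcl2l11, 0.17 for Bax and 0.74 for Bid.

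**Figure D3:**
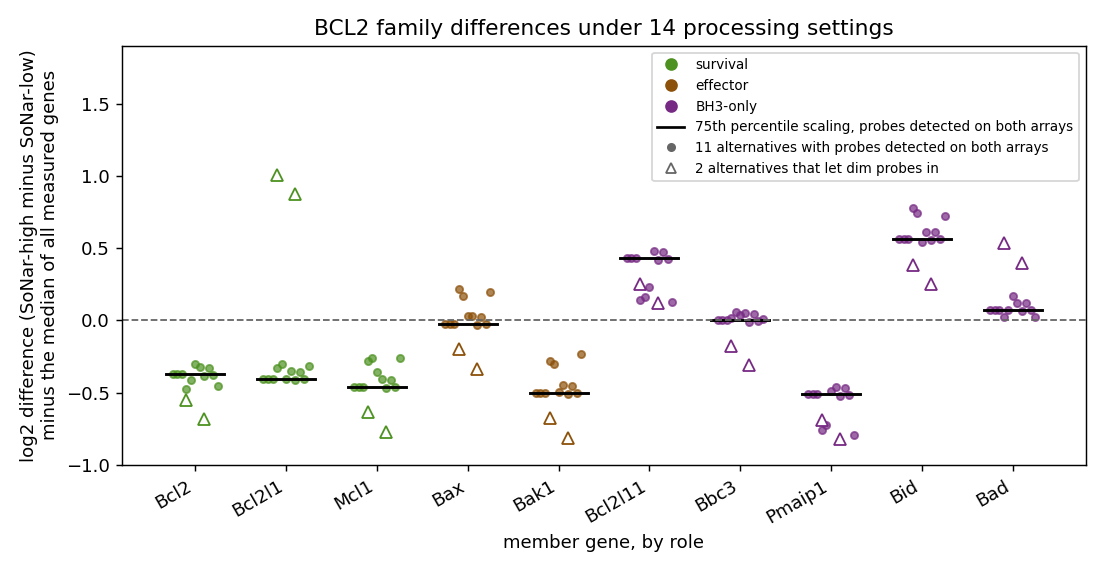
Log2 difference (SoNar-high over SoNar-low) for each member minus the median of all measured genes, under 14 processing settings. Black lines give 75th percentile scaling with probes detected on both arrays, circles 11 alternatives on the same probes and triangles 2 alternatives that let dim probes in. Bcl2, Mcl1, Bak1 and Pmaip1 lie below 0 and Bid, Bcl2l11 and Bad above it in all 14, while Bcl2l1 lies above 0 in both settings with dim probes.

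Other genes of the family were mostly dim. Of 4 further survival genes on the array (Bcl2l2, Bcl2l10, Bcl2a1c and Bcl2a1d) 0 were measured on both arrays. Bcl2l2 was detected only in SoNar-high cells, 1.14-fold above the lowest detected level of the SoNar-low array. Bcl2a1d too was detected only there, too dim to give a fold, and the Bcl2a1 copies are near-identical, so their probe can read more than 1 of them. Of 4 further death-promoting genes only Bmf was measured on both. Bmf, a BH3-only gene whose protein is tied to the cytoskeleton, had a signal of 777 in SoNar-high cells, against 1424 in SoNar-low cells. Its log2 difference of -1.02 was past 2-fold, on 1 probe, and it ranged from -1.63 to -0.81 over 14 settings. Bok was well above background in SoNar-high cells alone, yet its signal was lower there, 44.2, against 61.1 in SoNar-low cells. Its detection on a single array therefore gives no direction. Neither array detected Bik or Hrk.

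Among further BCL2-like and BNIP proteins 6 of 10 were measured, with a median log2 difference of -0.13 and 0 at 2-fold in either direction. Bnip1, which acts in membrane fusion at the endoplasmic reticulum, was lowest at -0.75, and Bnip3l, a mitophagy receptor, followed at -0.21, from 4 probes between -0.45 and 0.20. Bnip2 was highest at 0.17, from probes of opposite direction (0.90 and -0.55), and Bnip3, the hypoxia-induced mitophagy receptor, was at 0.11, likewise from probes of opposite direction (0.49 and -0.27).

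Downstream of the mitochondria, all 12 apoptosome and executioner genes were measured and 0 reached 2-fold. Their median log2 difference was -0.17, against -0.17 for all genes. Cycs, the gene of the cytochrome c that BAX and BAK1 release, was lowest at -0.74, and Endog, a mitochondrial nuclease, was at 0.18. The list was thus spread on both sides of the median, 6 genes above it and 6 below.

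Of 12 caspase inhibitors and their antagonists 9 were measured, with a median of -0.07 and 6 above the median of all genes. Naip5, a sensor of bacterial flagellin from the family of inhibitor of apoptosis proteins, was at least 2-fold higher at 1.20, with a signal of 22374 in SoNar-high cells, against 8793 in SoNar-low cells. Its difference ranged from 0.59 to 1.44 over the settings, and the Naip genes are close copies, so its probe can read several of them. Septin4 (0.61) was next. Xiap, which blocks caspases directly, was lowest at -0.71, and Birc5, the gene of survivin, followed at -0.57.

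Of 13 genes of the death receptor route 6 were measured, with a median of -0.11. Tnfrsf10b, the mouse TRAIL receptor, was highest at 0.58 and Fadd, the adaptor that recruits caspase-8, followed at 0.26. Tradd, an adaptor of the TNF receptor, was lowest at -0.88, and Cflar, which restrains caspase-8, was at -0.31. Casp8, whose product cleaves BID, was at 0.01. Fas was detected in SoNar-high cells alone, too dim to give a fold, and Fasl in neither.

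All 12 mitochondrial partners were measured, with a median of -0.35, 9 of them below the median of all genes and 0 at 2-fold. Most of them are brighter than the arrays' 75th percentile, and all genes that bright had a median of -0.29. Vdac2, an outer membrane channel that holds BAK1, was lowest at -0.70, and Slc25a4, an ADP/ATP carrier, followed at -0.50. Ppif, the cyclophilin of the permeability transition, was at 0.37. Mtch2, a docking site for cleaved BID, was highest at 0.70, but its probes pointed in opposite directions (1.89 and -0.49).

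Among 18 transcriptional regulators of the members 14 were measured, with a median of -0.11. Trp73, a p53 relative, was past 2-fold at 1.80, on 1 of its 3 probes, with a range from 0.40 to 2.01 over 13 settings. Nfkb1 was next at 0.25. Stat5a, which carries interleukin-7 signals in B cell precursors, was lowest at -0.67 and Foxo1 followed at -0.62. Trp53 itself, the p53 gene, was at 0.16. Foxo3, an activator of Bcl2l11 and Bbc3, was detected in SoNar-high cells alone, too dim to give a fold.

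Of 30 kinases, ligases and adaptors that act on the members 28 were measured, with a median of -0.31 and 19 below the median of all genes. Most of this list, too, is brighter than the arrays' 75th percentile, where all genes had a median of -0.29. Prkaca, the catalytic subunit of protein kinase A, a kinase that can phosphorylate BAD, was past 2-fold at 1.76, with a range from 1.03 to 1.97 over 14 settings. Its signal was 536 in SoNar-high cells, against 144 in SoNar-low cells, on 1 probe. Sfn, a 14-3-3 gene, was next at 0.63. Huwe1, a ubiquitin ligase of MCL1, was lowest at -0.87 and Gsk3a followed at -0.85. Usp9x, which removes ubiquitin from MCL1, was at -0.28.

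**Figure D4:**
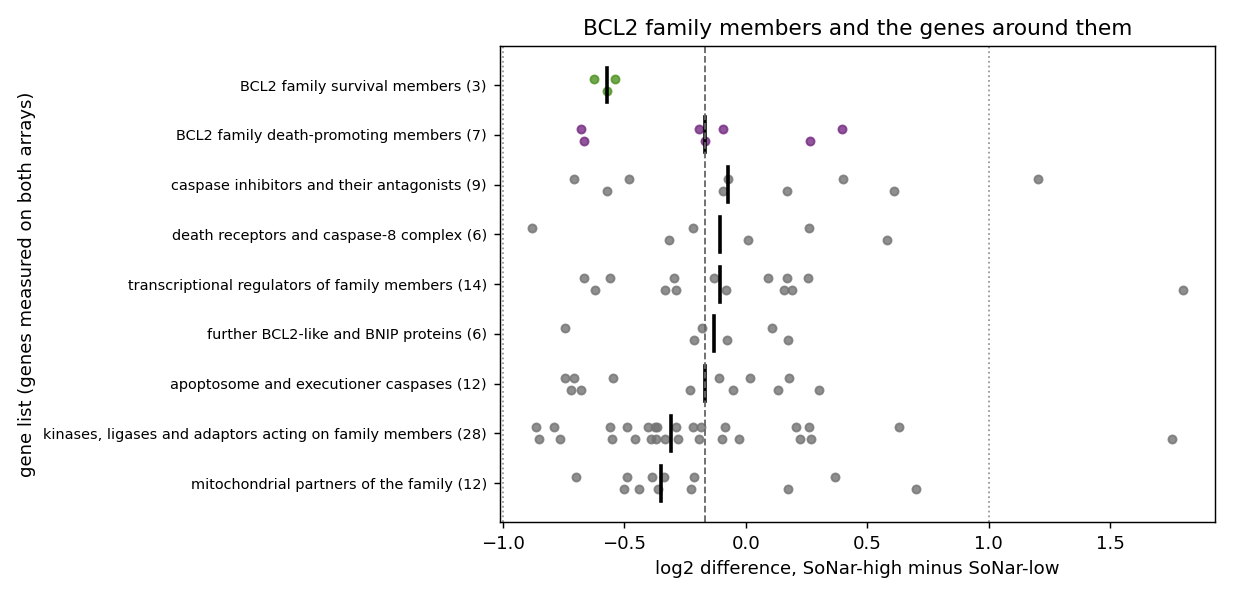
Log2 difference (SoNar-high over SoNar-low) for the survival and death-promoting members and of 7 lists of genes around them, 1 point per gene measured on both arrays, with a black bar at each median and a dashed line at the median of all measured genes (-0.17). List medians run from -0.57 for the survival members to -0.07 for caspase inhibitors, and past the dotted lines at 2-fold lie Naip5, Trp73 and Prkaca.

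Markers of other marrow cells differed between the arrays. Of 15 neutrophil markers 12 were measured, 11 of these above the median of all genes, with log2 differences from -0.32 to 1.29 and a median of 0.59. Their summed signal was 65123 in SoNar-high cells, against 45135 in SoNar-low cells. Most of it came from Csf3r, with 39790 in SoNar-high cells, against 26891 in SoNar-low cells. Without Csf3r the neutrophil sum was 25333 in SoNar-high cells, against 18244 in SoNar-low cells, in the same direction. Natural killer markers had a median of 1.12 over 3 of 8 genes, with summed signals of 980 in SoNar-high cells, against 459 in SoNar-low cells, and neither array detected Klrb1c, Gzmb or Klrd1. For T cell markers the median was 0.62 over 5 of 8 genes, with 3 above the median of all genes and 2 below. The 2 below, Lck (-0.94) and Cd2 (-0.63), were the brightest of the 5. The summed signals of T cell markers were 2892 in SoNar-high cells, against 3386 in SoNar-low cells, with Cd3d detected on neither array. Monocyte markers had a median of 0.81 over 2 of 6 genes, with summed signals of 454 in SoNar-high cells, against 203 in SoNar-low cells. Erythroid markers had a median of 0.88 over 4 of 11 genes, and stromal and endothelial markers one of 0.69 over 5 of 9. The summed signals were 17255 for erythroid markers in SoNar-high cells, against 24803 in SoNar-low cells, and 8960 for stromal markers in SoNar-high cells, against 13176 in SoNar-low cells. A single gene carried each of these sums, Hemgn for erythroid and Alpl for stromal markers. Without it the erythroid sum was 3102 in SoNar-high cells, against 2012 in SoNar-low cells, and the stromal sum 1186 in SoNar-high cells, against 659 in SoNar-low cells, so both directions turned. Of 5 megakaryocyte markers 0 were measured on both arrays. Their part in the values of the BCL2 family was not tested.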

How the data were processed

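The members and gene lists were chosen with earlier results of these data known. The authors deposited 1 Agilent 1-colour scanner file per group, whose spot intensity values were background-subtracted and detrended, per the file headers. These name Feature Extraction 11.0.1.1, and the submitters' processing notes name version 9.1. The authors also deposited a table of log2 values, whose columns share nearly all their quantiles and whose further steps no source used here states. It served as an alternative. The headers' annotation is of another genome build than the gene table, so coordinates are given only for the RefSeq promoter windows, in the build of that table.

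From log2 of each processed signal the array's own 75th percentile of non-control spots was subtracted. Spots that the software flagged as outliers were dropped from both arrays (685, of which 0 were of member probes). Unversioned RefSeq accessions gave a gene name to 27115 of 39085 probes. Probes well above background on both arrays were averaged per gene. Under the rule for named genes, all 10 members appear with every probe. Of each gene list the text names the 2 highest and 2 lowest measured genes and those at least 2-fold different. Some genes that this rule names are not reported here. No test was made, since 1 array per group leaves no spread to test, and the number of arrays sets the precision. The scripts were checked on simulated data, with planted differences past 2-fold. All gene means of the members were smaller than that, so the check does not cover differences of their size. There were 13 alternatives in scaling, normalization, background correction, filters and probe choice. Python 3.11.15, numpy 2.4.6, pandas 2.3.3, matplotlib 3.10.9, R 4.3.3 and limma 3.58.1 were used.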

Additional observations from a re-analysis of the deposited data

Results flagged for a closer look

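Signal was seen in 2 probes outside the comparison, left out of the gene means because SoNar-low cells gave no signal well above background. The left-out Bcl2l1 probe had a processed signal of 299 in SoNar-high cells, against 44.6 in SoNar-low cells. The left-out Bad probe had 92.5 in SoNar-high cells, against 36.9 in SoNar-low cells. The upper limit of the 153 negative controls, leaving out the top tail, was 5.50 for SoNar-high, against 13.3 for SoNar-low. Which transcripts these probes read was not tested.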

How the results depend on the processing

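No paired analysis was possible because a group was a single array, which also could not be left out. A log2 value counted as moved when it changed by more than the SD of repeat spots, 0.15, and a count when it changed by over 1.5 times. The number of members measured on both arrays was 10 under every setting. With median scaling 5 members were at least 2-fold lower, the survival median was -1.18 and the death-promoting median -0.78, Bcl2l11 turned to -0.35 and Bid to -0.22, and 139 genes were at least 2-fold higher and 3306 lower. With the percentile taken over spots that both arrays detected, these were -0.36 and 0.045 for the medians and 806 and 67 genes. After centring on measured genes they were -0.40 and -0.0012, with 70 genes lower. These shifts follow from moving whole arrays. Letting dim probes in turned Bcl2l1 to 1.02 and made it the 1 member at least 2-fold higher, with 2775 genes higher and 1751 lower with no filter and 3203 higher with detection on at least 1 array. The further Bcl2l1 probe enters there. Counts of genes at least 2-fold higher were 262 with normexp and 337 with the stricter filter. Counts at least 2-fold lower were 350 with quantile normalization, 300 with cyclic loess, 60 with normexp, 114 with the common limit and 430 in the authors' table, where 1 member, Pmaip1, was at least 2-fold lower. The cause was not tested for normexp, quantile, loess or table values. The gap between survival and death-promoting medians, -0.40, ranged from -0.40 to -0.34 over the 11 alternatives on the same probes and was -0.37 in both that let dim probes in. Of 130 member values under alternatives, 80 stayed within 0.15, 46 moved and 4 counted as reversed. The reversed ones were Bcl2l1 in both settings with dim probes, and Bcl2l11 and Bid under median scaling. Among the 46, some values of Bax, Bbc3, Bad and Bcl2l11 also changed sign, with the value before or after within 0.15 of 0. The settings for Bmf, Naip5, Prkaca, Trp73, the pair ratios and the members beyond the SD between probes were chosen after seeing the data. So were the values without Bcl2l1, Csf3r, Hemgn or Alpl.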
